A study of Drosophila melanogaster with 9 samples.

Results

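The genes described here are the chemosensory receptors and odorant-binding proteins of Drosophila melanogaster, followed in RNA from whole late embryos. They were taken from the deposited gene table by symbol, as odorant receptors (Or), gustatory receptors (Gr), ionotropic receptors (Ir), odorant-binding proteins (Obp) and the CheA and CheB proteins. The rule found 214 of the table's 10221 genes, made up of 52 Gr, 51 Ir, 47 Or, 44 Obp, 12 CheB and 8 CheA genes. Or19a and Or19b were left out by name. No value entered the rule, though it was set with earlier results of these data known. The study asked how neural lineages stop dividing, and each of its 3 genotypes was represented by 3 libraries. Embryos of all groups carried the driver Insc-Gal4, which is active in neural stem cells (neuroblasts) and other neural precursors. The controls held the driver over OregonR chromosomes and no UAS transgene. Quad embryos misexpressed ase, Kr, wor and SoxN from UAS transgenes, and Hexa embryos misexpressed those genes together with hb and nub. These 6 genes encode transcription factors, hb, Kr and nub being known for timing neuroblast identity. Embryos ran from stage 16 until the tracheae had filled with air, over 200 to a collection, with 3 collections described as biological replicates. Embryos with the transgenes but without the driver were not among the groups. The descriptions assign each genotype to an experiment of its own, so experiment and genotype cannot be told apart, and the headers of linear RPKM for controls 2 and 3 name another driver, da.

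Insects detect odours and tastes with neurons housed in hair-like sensilla, and in the larva most of these sit in the dorsal, terminal and ventral organs of the head. Olfactory neurons use an Or protein with the coreceptor Orco, or Ir proteins with broadly used Ir coreceptors such as Ir8a, while taste neurons use Gr and Ir proteins. Odorant-binding proteins are small secreted carriers of hydrophobic ligands, made by support cells of sensilla but also by glia, gut and other tissues. CheA and CheB genes encode secreted proteins related to lipid-binding proteins, known from taste sensilla.

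Library totals ran from 8555639 to 11687961 counted reads, and values are given as RPKM, the number of reads per transcript length and sequencing depth. The misexpressed gene wor averaged 2.88 RPKM in controls, 15.1 in Quad and 18.2 in Hexa, and hb averaged 1.56, 3.88 and 13.9 RPKM. Not every misexpressed gene stood higher: limma called ase, wor and SoxN higher in Quad and ase, nub, wor and hb higher in Hexa, but SoxN was not called in Hexa (adjusted p = 0.218). Kr averaged 7.24 RPKM in controls and 6.07 in Quad, and was called lower in Hexa at 4.87 RPKM (adjusted p = 0.0213). Summed over 15 heat shock genes, the Hexa libraries held 2683 (Hexa 1), 8373 and 11151 RPKM, against 1097 to 2211 RPKM in controls and 893 to 2552 RPKM in Quad. Control 2 stood apart from the other controls by the spread of its counts. In whole embryos a lower level can reflect fewer cells of a type or less RNA per cell, which cannot be told apart. Strand use in the counting was not given, and 10 of the members tested below have exons that overlap those of another gene.

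Few of these genes had appreciable RNA in late embryos. A level of 0.5 RPKM in at least 3 libraries, the minimum for testing, was reached by 35 of the 214 members (16.4%), against 60.6% of all genes in the table. Odorant-binding proteins made up most of them, with 22 of their 44 genes. The receptors added 6 of 51 Ir, 5 of 52 Gr and 1 of 47 Or genes, and the other families added CheB42c alone. With the minimum at 1 RPKM 28 members passed, and at 0.1 RPKM 83 passed. No member was at 0 in all 9 libraries, and 91 were above 0 in every library. Of the 35, 31 reached the minimum in libraries of every genotype. Ir64a and Obp57b did so without any control library, Ir62a without any Hexa library and Obp8a without any Quad library, so these 4 had to be higher somewhere to be tested at all.

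**Figure D1:**
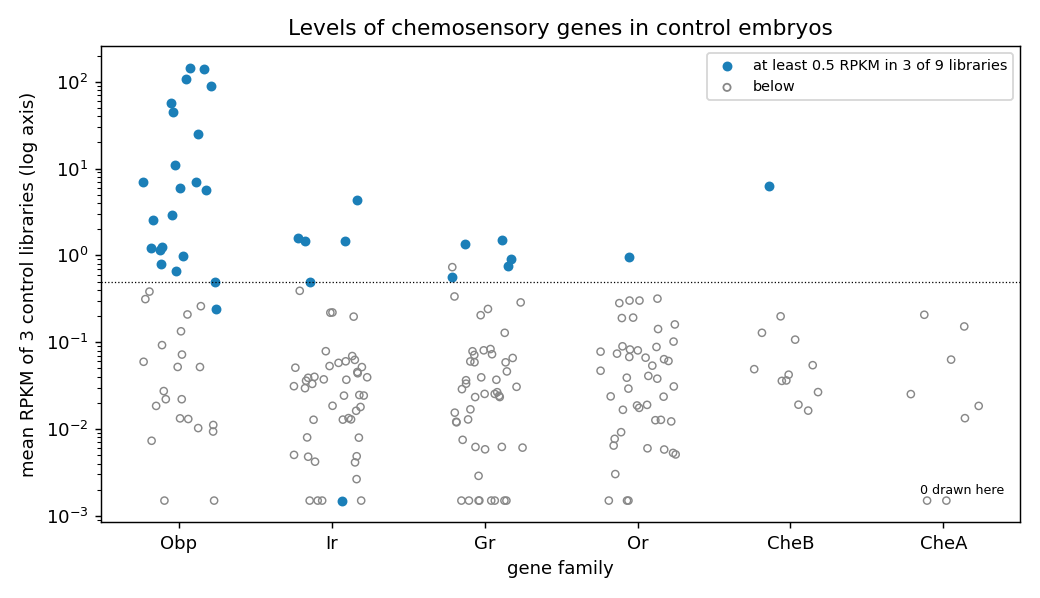
Mean RPKM over the 3 control libraries (log axis) of each of the 214 members, by family; filled points are the 35 genes with 0.5 RPKM or more in at least 3 of the 9 libraries, open points the rest, the dotted line marks 0.5 RPKM and means of 0 are drawn at the bottom. Odorant-binding proteins reach above 100 RPKM, while nearly all receptor genes lie below the line; the filled point at the bottom is Ir64a.

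Summed over the family, odorant-binding protein RNA came to 671, 581 and 727 RPKM in the 3 controls (replicates 1 to 3, the order used throughout). It came to 578, 607 and 522 RPKM in the Quad libraries and to 900, 1116 and 770 RPKM in the Hexa libraries. Every Hexa library was above every control and Quad library. The other 5 families together were far lower, with Gr sums between 5.38 and 11.3 RPKM and Ir sums between 7.20 and 15.8 RPKM in a library.

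The odorant-binding proteins of the control embryo spanned a wide range. Obp99a was highest, at 167, 92.9 and 176 RPKM in the controls. Obp44a followed at 142, 125 and 157 RPKM; it is known as a fatty-acid-binding protein of central nervous system glia. Obp99c stood at 109, 86.5 and 125 RPKM, and the control ranges of these 3 genes overlapped. Below them came Obp83cd at 83.7, 91.5 and 91.1 RPKM, Obp56d at 62.4, 59.9 and 49.8 RPKM and Obp28a at 39.2, 42.6 and 51.6 RPKM. Obp28a is an abundant carrier of adult antennal sensilla. Obp56h, linked in adults to mating behaviour, and Obp56a were at 20.7 to 29.0 and 10.2 to 11.2 RPKM. Obp57d, known from host plant taste, was listed at 6.83 to 7.04 RPKM. That value is uncertain: its exons overlap Cpr57A on the same strand, its RPKM followed that of Cpr57A across the 9 libraries with a Pearson r of 0.9996, and its deposited count was 0 in every library. Unlike Obp28a, the carriers Obp83a, Obp83b and Obp84a, also known from adult antennal olfaction, were near the floor in these embryos. Obp83a was at 0.0256 to 0.0791 RPKM, Obp83b at 0.0407 to 0.318 RPKM and Obp84a at 0.0377 to 0.102 RPKM in the controls. These 3 were named after their values were seen. Obp50b and Obp50c carried the same RPKM as each other in each library.

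Members of 1 named group did not share a level. Within the Obp56 group, Obp56d averaged 57.4 RPKM in the controls, Obp56h 24.9 and Obp56a 10.9, while Obp56c averaged 1.20 and Obp56g 0.801. Obp56e and Obp56i stayed at or under 0.178 RPKM in every library. The Obp99 group spanned a similar range, from Obp99d at 1.15 RPKM to Obp99a at 145 RPKM.

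Among ionotropic receptors, a family related to glutamate receptors, Ir85a had the highest control mean but varied widely, at 2.57, 7.62 and 2.94 RPKM. Its exons overlap Pif1B on the opposite strand, a gene at 66.7, 30.6 and 62.3 RPKM in the controls (mean 53.2). Pif1B was lowest in control 2, where Ir85a was highest, and the 2 genes correlated over the 9 libraries with r = 0.654. Ir87a was at 1.72, 1.51 and 1.51 RPKM and Ir76a, an adult antennal amine receptor, at 1.40, 1.60 and 1.41 RPKM. Ir21a, needed for cool sensing in the larval dorsal organ, was at 1.35, 1.83 and 1.19 RPKM. The coreceptor Ir8a stayed between 0 and 0.022 RPKM, while Ir25a, Ir76b and Ir93a were not analysed here. Of the gustatory receptors, Gr59f was at 1.75, 1.40 and 1.30 RPKM, Gr43a, the fructose receptor, was listed at 0.407, 0.711 and 0.593 RPKM, and Gr28b, known from light and heat avoidance, was at 0.768, 0.832 and 0.658 RPKM. The Gr43a value is uncertain, since its deposited counts were 0, 0 and 2 in the controls and 0 elsewhere and its exons overlap another gene. Gr39a was at 0.518, 2.60 and 0.908 RPKM. It lies within Mondo on the opposite strand, and its level correlated with that of Mondo over the 9 libraries with r = 0.933. In Ir85a, Gr39a, Gr59e and Ir62a control 2 was the highest control.

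Odorant receptor RNA was scarce. Of 26 receptors known from larval olfactory neurons, 21 had a row in the table and none was tested; 11 of these were above 0 in all 9 libraries, and the highest, Or1a, averaged 0.302 RPKM in the controls. The median control mean was 0.0676 RPKM for these 21 and 0.0213 RPKM for the 26 other Or genes. Or43b, an adult antennal receptor for esters, was the only Or tested, at 0.828, 0.850 and 1.19 RPKM in the controls. Its exons also overlap another gene. Their coreceptor Orco averaged 1.71 ± 0.311 (SD, n = 3) RPKM in controls, 1.90 in Quad and 2.05 in Hexa, and did not pass the test in any comparison. CheA75a was the highest CheA gene, with a control mean of 0.207 RPKM.

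A further 8 members exceeded 0.5 RPKM in a library without passing the minimum. Gr94a reached 1.81 RPKM in control 2 and 0.0517 to 0.372 RPKM elsewhere. Gr21a, part of the carbon dioxide receptor, was listed at 0.731 RPKM in Quad 2, where its deposited count was 0. Or2a and Obp57e peaked in Hexa 2 at 0.793 and 0.573 RPKM, and Ir51b in Hexa 3 at 0.523 RPKM. Obp69a peaked in control 1 at 0.527 RPKM and Or85f in control 2 at 0.501 RPKM. Ir7g reached 0.789 RPKM in Quad 1, and is described with the Quad comparison.

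The comparison of Quad with control embryos set the 4-factor genotype against the driver alone. The largest differences among the 35 tested members were higher levels of Obp56g and Ir64a. Genes were called with limma on log2(RPKM + 0.1) at a Benjamini-Hochberg adjusted p under 0.05 over all 6190 genes tested, a scale that understates the change of low genes. Each group had 3 biological replicates, and log2 differences are given with their standard error (SE). By this test 3 of the 35 members rose and 2 fell, where 2.16% of all genes were called higher and 2.52% lower. The median log2 difference was 0.07 over the members and 0.02 over all genes.

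Obp56g, known in adult males as a seminal fluid protein, was at 0.812, 0.847 and 0.746 RPKM in controls. The Quad libraries held 5.63, 7.64 and 9.03 RPKM and the Hexa libraries 1.46, 2.13 and 1.53 RPKM. The 3 groups did not overlap. Its Quad mean was 9.28-fold the control mean (log2 difference 3.04, SE 0.21, limma adjusted p = 3.00e-05). No other Obp56 gene passed the test in Quad.

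Ir64a, an acid-sensing receptor of the adult sacculus that acts with Ir8a, had no read in any control. The Quad libraries held 0.421, 0.712 and 0.798 RPKM from 440 reads, and the Hexa libraries 0.503, 0.596 and 0.639 RPKM from 330 reads. Taking 3 reads per control library as the limit of a count of 0, or 0.0125 to 0.0130 RPKM, its mean was at least 49.5-fold higher in Quad and at least 44.6-fold higher in Hexa. The limma adjusted p was 0.0009 for Quad and 0.0005 for Hexa. No control library reached the RPKM minimum, so Ir64a had to be higher in another group to be tested. Quad and Hexa overlapped, with a log2 difference of -0.10 (SE 0.32, limma adjusted p = 0.837). The partner Ir8a stayed near 0 in all 9 libraries.

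Ir87a, a receptor of the divergent Ir class, rose from 1.72, 1.51 and 1.51 RPKM in controls to 3.87, 4.08 and 4.02 RPKM in Quad (log2 difference 1.29, SE 0.18, limma adjusted p = 0.0042). The Hexa libraries lay between them, at 2.15, 2.15 and 3.34 RPKM. Obp56g, Ir64a and Ir87a passed under every alternative setting in which they could be fitted.

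Ir76a fell from 1.40, 1.60 and 1.41 RPKM to 0.345, 0.608 and 0.498 RPKM in Quad (log2 difference -1.45, SE 0.26, limma adjusted p = 0.0128), without overlap. Its deposited counts were near 0 in all libraries, so that call rests on RPKM alone. Obp8a fell from 0.564, 0.702 and 0.731 RPKM to 0.265, 0.179 and 0.303 RPKM (log2 difference -1.14, limma adjusted p = 0.0432). No Quad library reached the RPKM minimum, so Obp8a had to be higher in another group to be tested. Obp8a kept its call in 4 of 15 alternatives and lost it without any 1 of the 6 libraries, by edgeR, with the replicate block and with the length trend removed. Ir76a lost its call without control 3 or Quad 1 (adjusted p up to 0.0552), where no member was lower; without control 1, Quad 2 or Quad 3 only 1 member was. Obp99a also lay lower in every Quad library, at 66.8, 78.6 and 65.7 RPKM against 92.9 to 176 RPKM in controls, but missed the threshold (limma adjusted p = 0.0568).

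Ir7f and Ir7g, members of the divergent Ir7 group, were below the RPKM minimum but gained reads in Quad. Ir7g held 12, 8 and 12 reads in controls, where the Quad libraries held 126, 91 and 71 and the Hexa libraries 40, 34 and 73. Ir7f held 8, 4 and 6 reads in controls, where the Quad libraries held 32, 25 and 24 and the Hexa libraries 32, 16 and 31. In neither gene did the controls overlap the other groups. The edgeR test on the deposited counts called Ir7g higher in Quad (log2 difference 3.21, adjusted p = 4.37e-04) and in Hexa (2.41, adjusted p = 0.0014). It also called Ir7f higher in Quad (2.20, adjusted p = 0.0243) and in Hexa (2.37, adjusted p = 0.00674). No control library reached the read minimum of the edgeR test for Ir7f, so this gene had to be higher in another group to be tested. With no minimum on RPKM, limma called Ir7f higher in Hexa (log2 difference 1.07, adjusted p = 0.0171) but not in Quad.

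**Figure D2:**
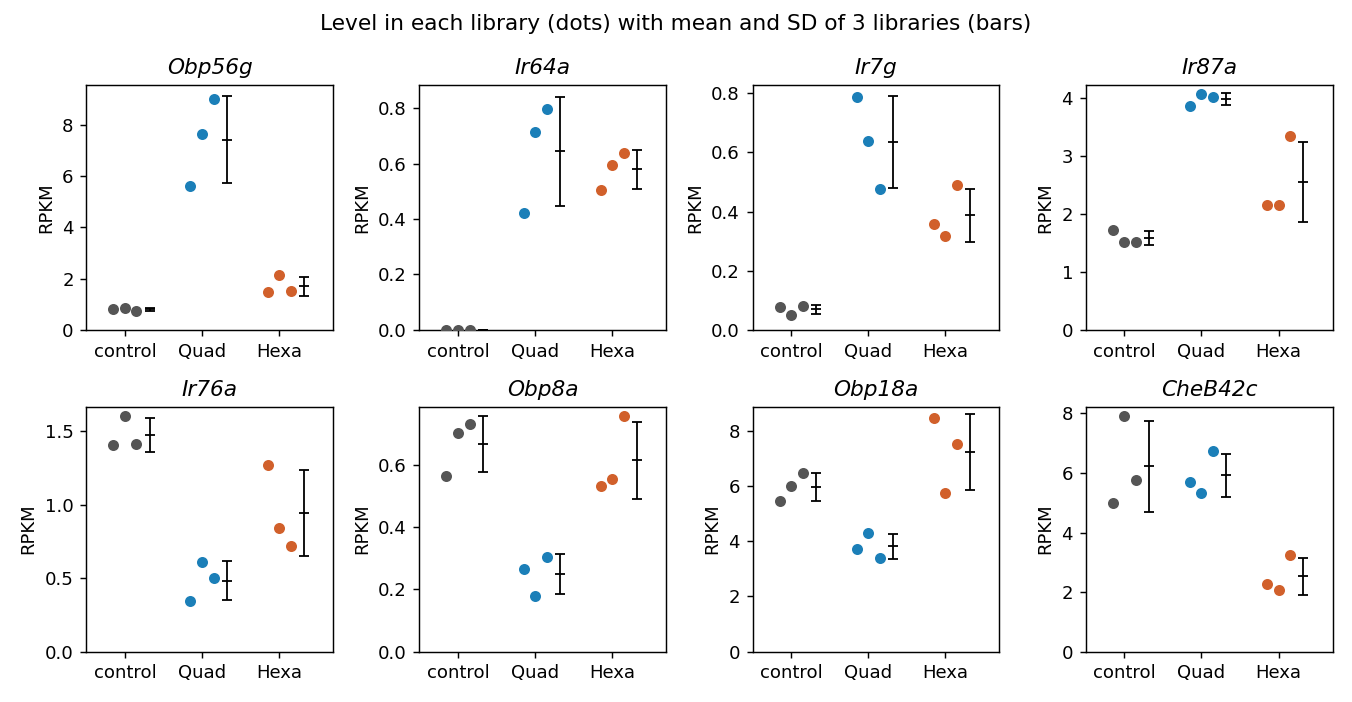
RPKM of 8 members in each of the 9 libraries (dots), with the mean and SD of the 3 libraries of each group beside them. Obp56g, Ir7g and Ir87a have their highest mean in Quad, Ir64a is at 0 in the 3 controls, Ir76a, Obp8a and Obp18a are lowest in Quad and CheB42c is lowest in Hexa.

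The comparison of Hexa with control embryos set the 6-factor genotype against the driver alone. Most odorant-binding proteins were higher: by limma 13 of the 22 tested rose and none fell (2 lower at an unadjusted p under 0.05, 0 by edgeR and DESeq2). Of the 22, 19 could be fitted on the deposited counts, where 6 rose by edgeR and 7 by DESeq2. Over all members 16 of 35 rose and 1 fell, where 19.1% of all genes were called higher and 13.1% lower. The median log2 difference was 0.88 for the tested odorant-binding proteins and 0.03 for all genes. Without control 1 there were 2 members lower, CheB42c and Obp46a, and without Hexa 3 there were 3, CheB42c, Gr59e and Obp99b.

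Several abundant carriers rose. Obp28a held 99.9, 116 and 69.4 RPKM in Hexa against 39.2 to 51.6 in controls and 42.3 to 54.1 in Quad (log2 difference 1.07, SE 0.19, limma adjusted p = 0.0051). Obp56h held 55.0, 62.4 and 41.4 RPKM against 20.7 to 29.0 in controls and 22.0 to 28.5 in Quad (log2 difference 1.08, SE 0.19, adjusted p = 0.0038). In both genes the Hexa libraries lay above all 6 others. Obp56d rose from a control mean of 57.4 to 114, 133 and 84.1 RPKM (log2 difference 0.92) and Obp99c from 107 to 163, 197 and 142 RPKM (0.65). Both calls were lost by edgeR and DESeq2 (adjusted p up to 0.164 and 0.601), and that of Obp99c in 8 of 17 alternatives. Obp44a was also above every control, at 188, 257 and 162 RPKM, but missed the threshold (log2 difference 0.50, limma adjusted p = 0.0564).

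Carriers of lower abundance rose as well. Obp56a reached 32.9, 37.4 and 23.8 RPKM in Hexa against 10.2 to 11.2 in controls (log2 difference 1.50, SE 0.28, limma adjusted p = 0.0056). Obp47a reached 3.94, 2.74 and 2.40 RPKM against 0.567 to 1.23 (log2 difference 1.57, SE 0.29, adjusted p = 0.0053). Obp49a, which in adults blocks sweet taste when bitter compounds are present, reached 17.2, 17.8 and 13.5 RPKM against 5.21 to 8.65 (log2 difference 1.20, SE 0.20, adjusted p = 0.0036). Obp56c reached 4.35, 4.61 and 3.25 RPKM against 0.838 to 1.76 (log2 difference 1.72), but its deposited counts were 0 to 3 in every library, so that call rests on RPKM alone. None of these 4 groups of Hexa values overlapped the controls. Obp58c (log2 difference 0.84), Obp99d (1.10), Obp56g (0.99), Obp57b (1.62) and Obp57d (0.61) also passed, the last with the uncertainty given above. Of these Obp58c lost its call with the length trend removed, Obp56g by both count tools, and Obp57b, Obp57d and Obp99d in most alternatives. Obp57b reached the RPKM minimum in no control library, so it had to be higher in another group to be tested.

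The 9 tested odorant-binding proteins that did not pass in Hexa included some of the most abundant. Obp99a was at 95.6, 148 and 127 RPKM and Obp83cd at 84.6, 98.4 and 65.7 RPKM, each overlapping the controls. Obp99b was at 3.18, 3.60 and 5.19 RPKM against 4.95 to 6.39 in controls, and Obp46a at 1.95 to 2.12 against 2.24 to 3.26 RPKM (limma adjusted p = 0.0690 and 0.0516). Members of a named group thus differed, Obp99c and Obp99d having passed and Obp99a and Obp99b not.

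Transcript length and heat shock RNA moved with this comparison. Of the 22 tested odorant-binding proteins 20 have a longest annotated transcript under 1000 bases. Among the other 1167 tested genes under 1000 bases, 30.5% were called higher in Hexa and 3.86% lower, with a median log2 difference of 0.39. Among 3722 longer genes 16.8% were higher and 16.6% lower, with a median of -0.07. With each library's trend on transcript length removed, a setting added after the data were seen, 8 odorant-binding proteins stayed higher (Obp28a, Obp47a, Obp49a, Obp56a, Obp56c, Obp56d, Obp56g and Obp56h). Under it 3 were lower (Obp46a, Obp83cd and Obp99b), and the family's median was 0.54. The part of heat shock RNA in these differences was not tested. Obp28a, Obp47a, Obp49a, Obp56a, Obp56h and Ir64a passed in Hexa against control under every setting in which they could be fitted.

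**Figure D3:**
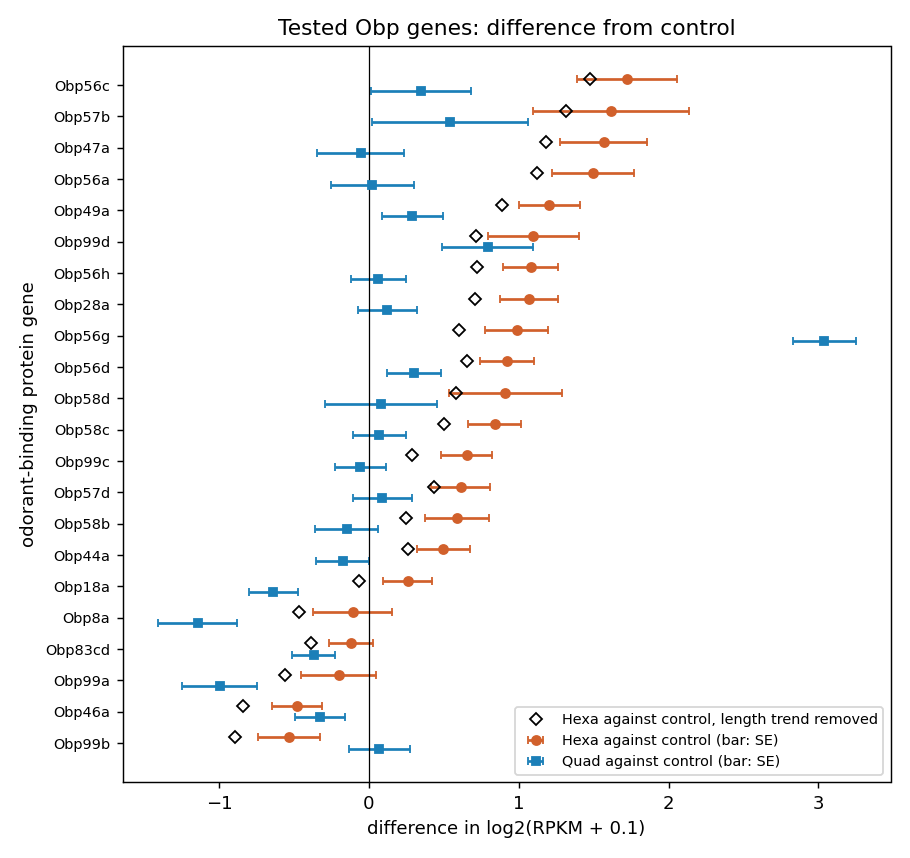
Difference from control in log2(RPKM + 0.1) of the 22 tested odorant-binding proteins, with SE bars, for Hexa (circles) and Quad (squares); diamonds give Hexa with the length trend removed. Hexa lies right of 0 for 17 of the 22, the diamonds lie left of the circles, and in Quad Obp56g stands apart at 3.04.

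Of the 13 tested receptors and CheB proteins 3 (23.1%) rose in Hexa and 1 (7.69%) fell, close to the 19.1% and 13.1% of all genes. Besides Ir64a, Ir87a rose (log2 difference 0.63, SE 0.18, limma adjusted p = 0.0316), a call lost in 8 of 17 alternatives, among them edgeR, the replicate block and the loss of any 1 control. Or43b rose to 1.90, 3.21 and 1.92 RPKM (log2 difference 1.18, SE 0.26, adjusted p = 0.0107) but did not pass by edgeR. None of the 5 tested Gr genes passed by limma in any comparison; 1 was lower in Hexa at an unadjusted p under 0.05 against either group, and DESeq2 called Gr59e lower against Quad. CheB42c fell from 4.99, 7.93 and 5.76 RPKM to 2.28, 2.06 and 3.24 RPKM (log2 difference -1.26, SE 0.22, limma adjusted p = 0.0038), with no overlap. It overlaps exons of mim on the same strand, and on the deposited counts it did not pass (edgeR adjusted p = 0.579). Ir85a was at 2.25, 0.279 and 1.77 RPKM and Gr39a at 0.948, 0.140 and 1.06 RPKM in Hexa, both lowest in Hexa 2 and neither called. Their overlapping genes Pif1B and Mondo were lower in Hexa too, at means of 19.9 and 46.8 RPKM against 53.2 and 66.3 in controls.

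Hexa was then set directly against Quad, which asks for the difference between the 6-factor and the 4-factor combination. Higher in Hexa were 16 members, against 13.5% of all genes, and lower were 4, against 9.63%. The 16 were 14 odorant-binding proteins, Ir76a and Or43b. Ir76a lost its call in 12 of 15 alternatives and Or43b in 11 of 17, the latter by edgeR and DESeq2 among others. The median log2 difference of the tested odorant-binding proteins was 0.78, beside 0.06 over all genes. Among the other tested genes with a known length under 1000 bases 26.1% were higher, with a median of 0.41. With the length trend removed 4 odorant-binding proteins stayed higher (Obp28a, Obp47a, Obp56a and Obp56h), with a family median of 0.36, and edgeR called 5. Obp56g was the clearest member lower in Hexa (log2 difference -2.05, SE 0.21, limma adjusted p = 0.0007). CheB42c (-1.21), Ir87a (-0.66) and Ir62a (-1.27) were lower as well. CheB42c was not called by edgeR or DESeq2 (adjusted p up to 0.990), Ir87a lost its call in 8 of 17 alternatives and Ir62a in 7 of 16. Ir62a, needed for calcium taste in adults, was at 0.840, 0.586 and 0.827 RPKM in Quad and 0.216, 0.155 and 0.434 RPKM in Hexa. No Hexa library reached the RPKM minimum, so Ir62a had to be higher in another group to be tested.

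Obp18a was among the 14, at 8.45, 5.76 and 7.51 RPKM in Hexa against 3.41 to 4.30 in Quad (log2 difference 0.90, SE 0.16, limma adjusted p = 0.0080), while its controls at 5.45 to 6.48 RPKM overlapped Hexa. Obp44a (0.67), Obp58b (0.74), Obp8a (1.03) and Obp99a (0.79) were likewise called against Quad and not against control. Obp44a and Obp58b each lost the call in 10 of 17 alternatives, among them edgeR and DESeq2, and Obp8a in 9 of 16. Obp99a turned in direction on the deposited counts (edgeR log2 difference -0.05, adjusted p = 0.953). This comparison was the least stable: without Quad 1, 2 or 3 the members higher numbered 7, 9 and 4, and without Hexa 1 or 2 they numbered 5 and 6. In each of these cases 2 were lower. Under every setting tried Obp56g stayed lower and Obp56h higher.

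**Figure D4:**
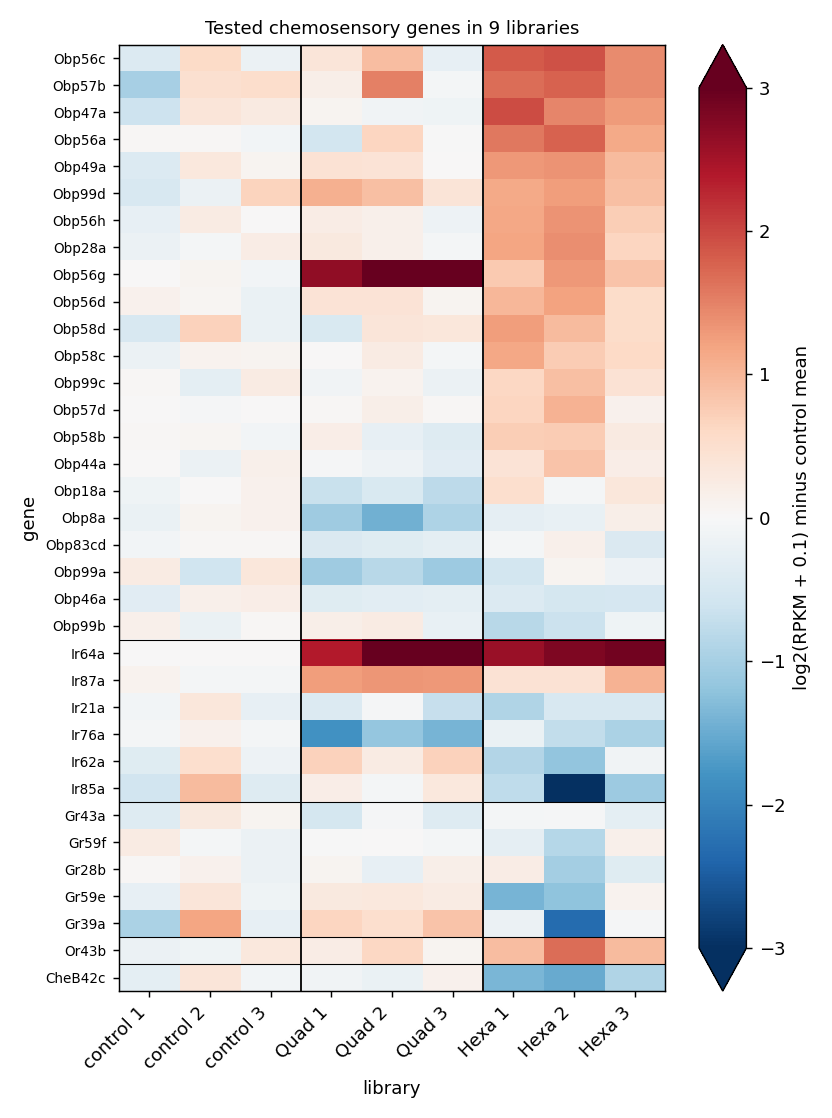
Difference of log2(RPKM + 0.1) from the control mean for the 35 tested members in each of the 9 libraries, by family; red is higher and blue lower, with colours saturating at 3 either way. Most odorant-binding protein rows are red in the 3 Hexa libraries, Obp56g and Ir87a are highest in Quad, Ir64a is red in Quad and Hexa, and Ir85a and Gr39a are lowest in Hexa 2.

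Other genes of chemosensory sensilla were followed through 2 lists. Of 36 cofactors and carriers of other families, 21 had a row and 15 were tested. None passed by limma, edgeR or DESeq2 in Quad, where 1 was higher and 1 lower at an unadjusted p under 0.05. In Hexa against control 6 rose and 1 fell, with a median log2 difference of 0.35, where 19.1% of all genes were higher and 13.1% lower. They included antdh, an antennal dehydrogenase (1.06, SE 0.20, limma adjusted p = 0.00622), Npc2a (0.93) and Npc2f (0.86), of a family of sterol-binding proteins, and a10, a chemosensory protein (1.32). Snmp2, a membrane protein of sensillum support cells, fell (-0.36, adjusted p = 0.0478). A second list held 37 symbols for transcription factors of chemosensory neurons and sense organs, some of them for the same gene. Of these 19 had a row and 13 were tested, 9 of them also on the deposited counts. In Quad nerfin-1 rose (0.64, limma adjusted p = 0.0356) and none fell by limma, edgeR or DESeq2 (0 lower at an unadjusted p under 0.05). In Hexa 2 rose against control, nerfin-1 (0.51) and Fer1 (0.42), and 3 fell: ham (-0.54), dac (-0.53) and sv (-0.66). These counts of 13 lie near the shares over all genes. Of the 9 fitted on the deposited counts, 0 rose and 1 fell by edgeR and by DESeq2. The summed RPKM of support cell markers (lush, Snmp2, sv and ham) ran from 33.7 to 36.2 in controls, 34.1 to 37.9 in Quad and 21.5 to 27.3 in Hexa. These genes belong to the 2 lists, and the falls of Snmp2, sv and ham are those given above, so the sum adds no separate result. Olfactory and taste neuron markers (Orco, Ir8a, Gr28a and Gr28b) summed to 2.21 to 2.91 RPKM in controls, 2.51 to 2.85 in Quad and 2.30 to 3.43 in Hexa. The sum of general neuron markers also overlapped, reaching 89.6 RPKM in controls and starting at 77.4 in Hexa. Against Quad 3 of the 15 cofactors were higher in Hexa and 1 lower, where 13.5% of all genes were higher and 9.63% lower. Of the 13 transcription factors 4 were lower and none higher (0 also at an unadjusted p under 0.05 and by edgeR and DESeq2). On the deposited counts 2 of the 9 fitted were lower by edgeR and by DESeq2.

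Some summed markers of other tissues also differed between the groups, often through a few genes. The sum of 6 midgut genes ran from 207 to 271 RPKM in controls, 136 to 165 in Quad and 269 to 422 in Hexa; in Hexa against control Amy-p, Jon65Aiv and Mal-A1 rose and LManI fell. The sum of 5 epidermis and cuticle genes ran from 149 to 192 RPKM in controls, 107 to 132 in Quad and 68.1 to 89.6 in Hexa. TwdlX carried most of the Quad difference, at a mean of 99.0 RPKM in controls and 35.6 in Quad, while ple was at 45.9 and 51.5 RPKM. The glial sum was 193 to 207 RPKM in controls, 224 to 239 in Quad and 195 to 226 in Hexa. Hemocyte genes summed to 191 to 220 RPKM in controls, 185 to 197 in Quad and 119 to 160 in Hexa, where 5 of 7 tested fell, and fat body genes to 239.6 to 320.5, 286 to 312 and 134 to 211 RPKM, where apolpp, the 1 tested, fell in Hexa. Of 4 salivary gland genes only ng3 was called, higher in Hexa (0.0243 RPKM in controls, 6.32 in Hexa). The part of these tissues in the member differences was not tested.

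The genes whose profile was most like that of a member were sought among tested genes outside the families, by Pearson correlation over the 9 libraries as a description. Obp56g was closest to GstD7 (r = 0.974). Ir64a was closest to Scp1 (0.993), Drsl6 (0.979) and ZnT35C (0.971), which averaged 7.28 RPKM in controls, 35.3 in Quad and 41.1 in Hexa. Obp49a and Obp56c both had the cuticle protein gene Cpr67B among their 3 closest (0.987 and 0.980), a gene at 33.5 RPKM in controls, 42.9 in Quad and 121 in Hexa. Obp56h was closest to PH4alphaNE1 (0.994) and CheB42c to LanA (0.981). The 9 libraries share the group differences, so such correlations follow any gene that differs between the groups.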

How the data were processed

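RNA of whole embryos was sequenced in 9 libraries, 3 per genotype, grouped and numbered by the sample titles. Members and gene lists were chosen with earlier results of these data known. Per the file headers, the authors deposited 1 table with a raw read count, a linear RPKM and a log2 RPKM per library. For the aligner, counter, genome build and strand use, no detail was given in the sources used here. The deposited log2 RPKM was used, with its floor of -10.86 set to 0. The linear RPKM equalled it within 0.000707 on the log2 scale at 1 RPKM or more. Counts matched RPKM (within 1% or 0.5 reads) in all 9 libraries for 16 of the 21 tested members with 1 annotated transcript. BDGP release 6.54 (Ensembl 115) served for transcript length and overlapping genes only.

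Genes with 0.5 RPKM or more in at least 3 libraries were tested with limma 3.58.1 (R 4.3.3; trend and robust empirical Bayes) on log2(RPKM + 0.1), 9 libraries in 1 fit. The Benjamini-Hochberg adjusted p threshold was 0.05 over 6190 genes. The deposited counts were tested with edgeR 4.0.16 and DESeq2 1.42.0 as alternatives, on genes with 10 reads in 3 libraries. The length split, the overlap check and the length trend setting were chosen after the data were seen. Scripts were tested on simulated data. Named were members called in any comparison, the 10 highest in controls, the Ir coreceptors, the highest member of each family, and untested members above 0.5 RPKM in a library. Obp83a, Obp83b, Obp84a, Obp50b, Obp50c, Obp56e and Obp56i, and members near a threshold or with a shared locus, were named after their values were seen.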

Additional observations from a re-analysis of the deposited data

How the results depend on the processing

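Ir64a, Ir87a and Obp56g passed in Quad, Ir64a, Obp28a, Obp47a, Obp49a, Obp56a and Obp56h in Hexa against control, and Obp56g and Obp56h in Hexa against Quad under each alternative in which they were fitted. Replicate numbers did not pair the samples: correlations of deviations ran from -0.152 to 0.179 for the same number and from -0.196 to 0.200 for other numbers. With the replicate number as a block, members higher numbered 3, 13 and 12 in Quad against control, Hexa against control and Hexa against Quad, and members lower 1, 1 and 2.

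Members higher in Quad were 5 by edgeR and 5 by DESeq2, which added Ir7f and Ir7g. Members lower in Quad were 1 with a pseudocount of 1 RPKM, 1 with a minimum of 1 RPKM, 0 by edgeR and 1 by DESeq2. Against control, Hexa had 9 members higher with Hexa 1 as the only Hexa library, a fit in which that library is assumed to vary like the other groups. Members lower there numbered 2 with a minimum of 1 RPKM, 2 by DESeq2, 2 with Hexa 1 alone and 4 with the length trend removed. Against Quad, members higher in Hexa numbered 6 by edgeR, 9 by DESeq2, 6 with Hexa 1 alone and 4 with the length trend removed. Leaving out 1 library gave 3 higher and 0 to 2 lower in Quad, 11 to 16 higher and 1 to 3 lower in Hexa against control, and 4 to 16 higher and 2 to 6 lower in Hexa against Quad. At 0.1 RPKM 83 members were detected. Obp99a in Hexa against Quad reversed by edgeR to -0.0535 and by DESeq2 to -0.0356. The cause was not tested.

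Scaling the RPKM by TMM factors moved the median log2 difference of all genes from 0.03 to 0.18 in Hexa against control and from 0.06 to 0.26 in Hexa against Quad. Of all calls, 77.5% instead of 59.3% and 79.7% instead of 58.4% were then higher, and 15 and 14 odorant-binding proteins passed as higher. Among the 16 members whose counts match RPKM, 7 were higher in Hexa against control by limma, 5 by edgeR and 7 by DESeq2. Low counts limit most receptors: 179 members were below the RPKM minimum, and 70 members could be fitted on the counts.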

Other observations

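Some members below the RPKM minimum were called on the deposited counts. There edgeR called 9.25% of all fitted genes higher in Hexa against control and 5.93% higher in Hexa against Quad. Gr68a, known from male foreleg taste, was higher in Hexa against control by edgeR (log2 difference 1.93, adjusted p = 0.0281), with 0.426, 0.268 and 0.309 RPKM in Hexa against 0.0287 to 0.111 RPKM in controls. Ir41a, an adult antennal polyamine receptor, was higher as well (0.86, edgeR adjusted p = 0.0455), with 0.347 to 0.395 RPKM in Hexa against 0.172 to 0.213 RPKM in controls. Or82a was higher in Hexa against Quad (2.00, edgeR adjusted p = 0.0265), with 0.258 to 0.332 RPKM in Hexa, 0.0410 to 0.0977 RPKM in Quad and 0.113 to 0.251 RPKM in controls. With no minimum on RPKM, limma also called Or63a higher in Hexa against control (0.92, adjusted p = 0.0375), with 0.360, 0.402 and 0.390 RPKM in Hexa and 0.101 to 0.213 RPKM in controls. These levels come from few reads.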
